A study of Mus musculus with 2 samples.

Results

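The cells described here were T cells that held transcripts of Trdc, the constant region of the T cell receptor delta chain, without those that mark helper, cytotoxic, regulatory, interleukin 17-type or dividing T cells. Members were chosen by measured values. Each had at least 1 UMI (unique molecular identifier, 1 counted transcript molecule) of Trdc, at least 2 UMIs over Cd3d, Cd3e and Cd3g, no UMI of Cd4, Cd8b1, Cd163l1, Il23r or Foxp3, and at most 1 UMI over Mki67 and Top2a. The rule found 193 of 15156 kept cells, of which 112 came from 8770 cells of the control IgG library and 81 from 6386 cells of the Activin A antibody library.

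The cells came from ovarian tumors growing at an abraded site of the peritoneal wall. Female C57BL/6 mice of 6 to 8 weeks with peritoneal abrasion received syngeneic p53-/-, myc and Hras ovarian cancer cells i.p. One group was then treated with an Activin A neutralizing antibody and the other with control IgG for 10 days, in 8 and 7 mice per the labels. Tumors were pooled by group before dissociation, lysis of red cells and removal of dead cells, no cell type was selected, and each group is 1 droplet library read from transcript 3′ ends. With 1 library per group there was no test between groups, and the effect of the antibody cannot be told apart from other differences between these 2 libraries.

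T cells recognize antigen through a receptor of alpha and beta chains or of gamma and delta chains, held at the surface by the CD3 proteins. The delta genes lie inside the alpha locus, so that rearrangement of the alpha genes removes delta from that chromosome. Gamma delta T cells and other innate-like T cells often respond without priming, and many carry receptors best known from natural killer (NK) cells, such as the Ly49 receptors for MHC class I. In mice, gamma delta cells are commonly divided into those poised to make interleukin 17 and those poised to make interferon gamma.

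The mouse gamma chain has several constant region genes, and their counts are a receptor feature that the rule did not set. The first 120 bases of each constant gene follow in coding direction, from GENCODE M21 on GRCm38 (mm10). They are shown because the closeness of Tcrg-C1 to Tcrg-C2 bears on how far their counts can be told apart. Capitals mark bases of Tcrg-C2 and Tcrg-C4 that differ from Tcrg-C1 at the same place. Tcrg-C1 lies at chr13:19214103-19217024 (plus strand), Tcrg-C2 at chr13:19304649-19307551 (minus), Tcrg-C4 at chr13:19344558-19352756 (plus) and Trdc at chr14:54142851-54148868 (plus).
Tcrg-C1: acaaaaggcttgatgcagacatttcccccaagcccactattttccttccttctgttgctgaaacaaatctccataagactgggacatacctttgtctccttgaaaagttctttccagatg
Tcrg-C2: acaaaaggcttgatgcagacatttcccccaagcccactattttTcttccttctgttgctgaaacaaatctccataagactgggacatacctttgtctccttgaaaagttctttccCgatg
Tcrg-C4: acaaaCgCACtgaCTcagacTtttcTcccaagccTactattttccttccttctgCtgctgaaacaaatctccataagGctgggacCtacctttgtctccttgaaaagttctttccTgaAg
Trdc: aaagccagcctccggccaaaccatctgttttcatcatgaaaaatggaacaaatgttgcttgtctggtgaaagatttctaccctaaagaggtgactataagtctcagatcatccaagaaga
Tcrg-C2 differed from Tcrg-C1 at 2 of these bases and Tcrg-C4 at 14. Over the last 300 bases of the transcripts, which 3′ libraries read, 93.6% of aligned bases were identical between Tcrg-C1 and Tcrg-C2 and 60.4% between Tcrg-C1 and Tcrg-C4. Reads of Tcrg-C1 and Tcrg-C2 may therefore have been lost or split between the genes, and their separate levels are uncertain.

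Members made up 1.28% (95% Clopper-Pearson interval 1.05 to 1.53%) of kept cells in the control library and 1.27% (1.01 to 1.57%) in the antibody library. The log2 ratio of these shares was -0.01 (95% interval -0.44 to 0.42), and all intervals given here cover counting error only. Among cells with a Trdc UMI and at least 2 CD3 UMIs, members were 51.4% and 50.9%. Members held a median of 3969 UMIs (1745 to 55004) in the control library and 3478 (1800 to 7235) in the antibody library, with medians of 1827 and 1710 genes. The libraries held 98174850 and 74117462 UMIs in all. Of 19 barcodes kept in both libraries, 1 was a member, in the antibody library.

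The rule rests on few transcripts per cell. Median Trdc UMIs per member were 3 and 2, and 22 of 112 control and 30 of 81 antibody members had exactly 1. The CD3 sum was 2 in 7 and 9 members and at least 5 in 78 and 49. Just outside this limit, Trdc-positive cells with a CD3 sum of 0 (43 and 54 cells) had 5469 and 3671 CPM (UMIs per 1000000 UMIs of the cells) of Gzma, granzyme A, and 720 and 1088 CPM of Klra4, an activating Ly49 receptor of NK cells, with no UMI of Themis, a T cell signalling protein. Those with a sum of 1 (16 and 9 cells) had 1784 and 909 CPM of Gzma. Just inside, members with a sum of 2 had 0 and 1221 CPM of Gzma, 0 CPM of Klra4 in both libraries, 207 and 33 CPM of Klra8, another activating Ly49 receptor, 0 and 66 CPM of Ncr1, the NK receptor NKp46, and 152 and 330 CPM of Themis. In the antibody library Gzma was thus no lower just inside the limit than at a sum of 1. The control levels at a sum of 2 rest largely on 1 cell. It held 55004 of the 72436 UMIs of these 7 members, and 195 UMIs of a list of cancer cell genes. The Klra8 UMIs of the control members also came from 1 cell.

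Some members also carried another cell's transcripts. By at least 20 UMIs of fixed marker lists for other lineages, dendritic cells or muscle, 6 control members and 1 antibody member were mixed. The control member with most UMIs, 55004, held 195 UMIs of the cancer cell list, another of 11634 UMIs held 171 of the macrophage list, and the member with most dendritic list UMIs held 430. Over all control members the macrophage list (8 of 8 genes detected) summed to 545 CPM with Lyz2 as its most abundant gene, against 57.6 CPM without the mixed members, and the antibody members had 10.1 CPM with C1qa, C1qc, Cd14, Adgre1 and Csf1r among the genes at 0. The dendritic list, whose most abundant gene was Cd74 in both libraries, stood at 1400 and 139 CPM and at 131 and 51.3 CPM without them. The B cell list, led by Ighm, stood at 149 and 132 CPM, and no hemoglobin transcript was detected. The cancer cell list stood at 389 and 27 CPM (39.9 and 27.4 CPM without the mixed members, with Lgals7 and Dlk1 as the most abundant genes), and the muscle list, led by Acta1, at 313 and 40.5 CPM (48.8 and 41.1 CPM). The fibroblast list, led by Col3a1, stood at 59.8 and 40.5 CPM. The list of NK cell genes, all 6 of which were detected, stood at 426 and 669 CPM, with Klre1 and Klrb1c as its most abundant genes. The part of other cells' transcripts in results that are not given without the mixed members was not tested. Leaving out the mixed members kept 186 cells, 106 and 80, and some values are given for this set too.

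Transcripts of the gamma constant genes were counted in a little over 1 in 2 members. At least 1 UMI of Tcrg-C1, Tcrg-C2 or Tcrg-C4 was found in 63 of 112 control and 47 of 81 antibody members. UMIs of 2 of these genes were found in 19 control and 10 antibody members, and of all 3 in 8 and 2. Shares of UMIs therefore do not show which gene the receptor of a cell used. Levels in control and antibody members were 48.9 and 60.8 CPM for Tcrg-C1, 103 and 84.5 CPM for Tcrg-C2, and 109 and 152 CPM for Tcrg-C4. In NK-like cells, which held an Ncr1 UMI without CD3, Tcrg-C2 stood at 0 and 2.98 CPM and Tcrg-C4 at 35 and 29.8 CPM. Counts of Tcrg-C4 were thus not confined to CD3-positive cells. Of the UMIs of these genes, Tcrg-C4 took 41.7% (33.5 to 50.2%) and 51.1% (40.2 to 61.9%) in members. In gamma delta T17-like cells, which met the same rule but held Cd163l1 or Il23r (37 and 23 cells), Tcrg-C4 took 14.9% and 18.3%, and Tcrg-C1 led with 71.3% (60.6 to 80.5%) and 61.7% (48.2 to 73.9%). The intervals of members and gamma delta T17-like cells did not overlap in either library, for the Tcrg-C1 share or the Tcrg-C4 share. The level of Tcrg-C1 was lower in members, against 526 and 537 CPM in gamma delta T17-like cells, with log2 ratios of -3.43 (-4.14 to -2.75) and -3.14 (-4.04 to -2.29). The level of Tcrg-C4 was not called different, against 110 and 160 CPM there, with log2 ratios of -0.02 (-0.90 to 0.97) and -0.07 (-1.04 to 1.03), so that the shares differed with the level of Tcrg-C1. Trgv2, a variable gene, stood at 39.8 and 67.6 CPM in members. Trdv4 was not detected in members and stood at 178 and 87 CPM in gamma delta T17-like cells, and Tcrg-V6 stood at 0 and 6.76 CPM in members against 67.9 and 72.5 CPM.

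Trac, the alpha chain constant region, was low but not absent. It stood at 88.8 and 54 CPM in members and at 523 and 557 CPM in CD8 cells, which were CD3-positive with a Cd8b1 UMI and no Trdc (1958 and 1614 cells). A Trac UMI was found in 21.4% of control and 14.8% of antibody members, against 5.09% and 1.54% of B-like cells (Cd79a-positive and CD3-negative, median 2890 and 2810 UMIs), which should lack it. With every cell thinned to 2000 UMIs, which left out 2 control and 4 antibody members, these shares were 13.6% and 11.7% in members and 1.92% and 1.64% in B-like cells. Of the 24 control members with Trac, 11 also held a gamma constant UMI and 13 did not, and of the 12 antibody members 5 did and 7 did not. Trbc2, a beta chain constant region, stood at 552 and 635 CPM and was found in 81.2% and 75.3% of members. Gamma constant transcripts were thus counted in some members only, and the members are called here by the rule.

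**Figure D1:**
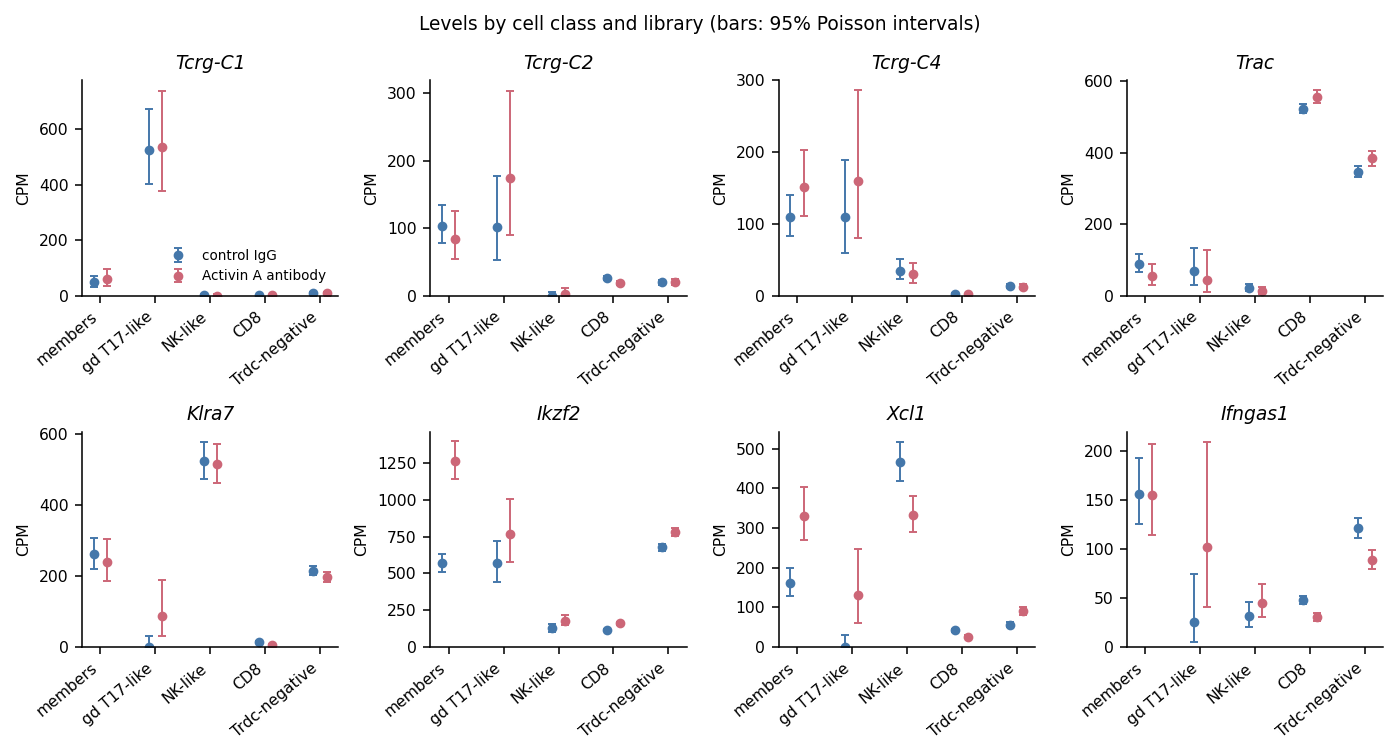
Level in CPM (vertical axes) of 8 genes in members and 4 other classes of cells, for the control IgG and Activin A antibody libraries, with bars for 95% Poisson intervals. Tcrg-C1 was highest in gamma delta T17-like cells (526 and 537 CPM), Trac was higher in CD8 cells (523 and 557 CPM) than in members (88.8 and 54 CPM), and Ikzf2 in members was 569 CPM in the control and 1263 CPM in the antibody library.

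The named markers of these cells were measured in part of them. Ikzf2, which encodes the transcription factor Helios (chr1:69531214-69687245, minus strand), was found in 62.5% (52.9 to 71.5%) of control and 75.3% (64.5 to 84.2%) of antibody members, with up to 20 and 26 UMIs per cell. Klra7, the inhibitory receptor Ly49G (chr6:130218605-130233322, minus), was found in 23.2% (15.8 to 32.1%) and 24.7% (15.8 to 35.5%). Xcl1, a chemokine that draws cross-presenting dendritic cells (chr1:164931644-164935527, minus), was found in 29.5% (21.2 to 38.8%) and 32.1% (22.2 to 43.4%). Ifngas1, a long noncoding RNA at chr10:118502035-118556525 (minus), beside Ifng at chr10:118441046-118445892 (plus), was found in 43.8% (34.4 to 53.4%) and 29.6% (20 to 40.8%). The share with Ikzf2 in B-like cells was 1.85% and 1.54%, and for the other markers it was at most 0.769%, so that all 4 stood above this background in both libraries.

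Set against cells that met the rule except for having no Trdc UMI (1014 and 896 cells, called Trdc-negative), most of these markers did not set members apart. Klra7 stood at 215 and 197 CPM in Trdc-negative cells and at 261 and 240 CPM in members. Ikzf2 stood at 678 and 781 CPM in Trdc-negative cells against 569 and 1263 CPM. Xcl1 was at least 2-fold higher in members in both libraries, with 161 and 331 CPM against 56.2 and 91.1 CPM and log2 ratios of 1.52 (1.16 to 1.87) and 1.86 (1.52 to 2.19), but 3 members held 45 of 89 and 56 of 98 of its UMIs. Without those cells, an alternative chosen after seeing the data, the log2 ratios were 0.58 (0.09 to 1.05) and 0.71 (0.21 to 1.18), under 2-fold, and with the 3 highest cells left out of both classes 0.80 (0.30 to 1.28) and 1.08 (0.58 to 1.56). Ifngas1 stood at 156 and 155 CPM in members and at 121 and 88.6 CPM in Trdc-negative cells. Of the 4 markers beside Trdc, 1 was thus higher by at least 2-fold with intervals without 0 in both libraries, as were 0.327% of all genes compared, and 0 were lower, as were 1.08%, and this 1 call rested on 3 cells per library. Klra7, found in 23.2% and 24.7% of members, marked a minority of the cells that the rule gathers.

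Among the Ly49 genes, the activating pair took a smaller share of UMIs in members than in NK-like cells. NK-like cells were defined by an Ncr1 UMI, Ncr1 encoding the receptor NKp46, without CD3 (187 and 176 cells). Klra7 stood at 261 and 240 CPM in members, against 523 and 514 CPM in NK-like cells. Klra1, the inhibitory Ly49A (chr6:130363917-130386874, minus), stood at 105 and 139 CPM in members and 82.9 and 49.2 CPM in NK-like cells. Klra4 and Klra8 encode the activating Ly49D and Ly49H, and both were low in members. Klra4 had no UMI in 112 control members and 12 UMIs in 2 antibody members (40.5 CPM), against 794 and 886 CPM in NK-like cells. All 15 Klra8 UMIs of the control members came from 1 cell. Of all UMIs of Klra4 and Klra8 and of the inhibitory Klra1, Klra3, Klra5, Klra6, Klra7 and Klra9, the activating pair took 5.3% (3 to 8.59%) and 12.9% (8.16 to 19%) in members, and 59.1% (56.9 to 61.2%) and 61% (58.7 to 63.3%) in NK-like cells. In Trdc-negative cells it took 8.9% and 11.7%, and in CD8 cells 11.8% (8.29 to 16.1%) and 44.3% (38.3 to 50.4%). The Ly49 genes are close copies of each other, so the split of UMIs among them is uncertain.

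Most members had no Ly49 transcript counted. At least 1 of these receptor genes was found in 43 of 112 control and 34 of 81 antibody members, and at least 4 in 2 and 2. Among NK-like cells at least 4 were found in 34 of 187 and 34 of 176. Klra7 was lower than in NK-like cells only narrowly, being 2.01-fold and 2.14-fold lower, and no longer at least 2-fold without the mixed members, and Klra1 was not called different. Klra3, Klra4, Klra8 and Klra9 were also called lower, but each reached the 20 UMIs that a comparison required mainly through NK-like cells, so no count over these genes is read. Klra7 was higher than in CD8 cells, with log2 ratios of 4.30 (3.95 to 4.64) and 5.09 (4.56 to 5.63). Against Trdc-negative cells 0 of 9 were past 2-fold, beside 0.327% of all genes higher and 1.08% lower. A count of 0 among 9 is near that background.

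**Figure D2:**
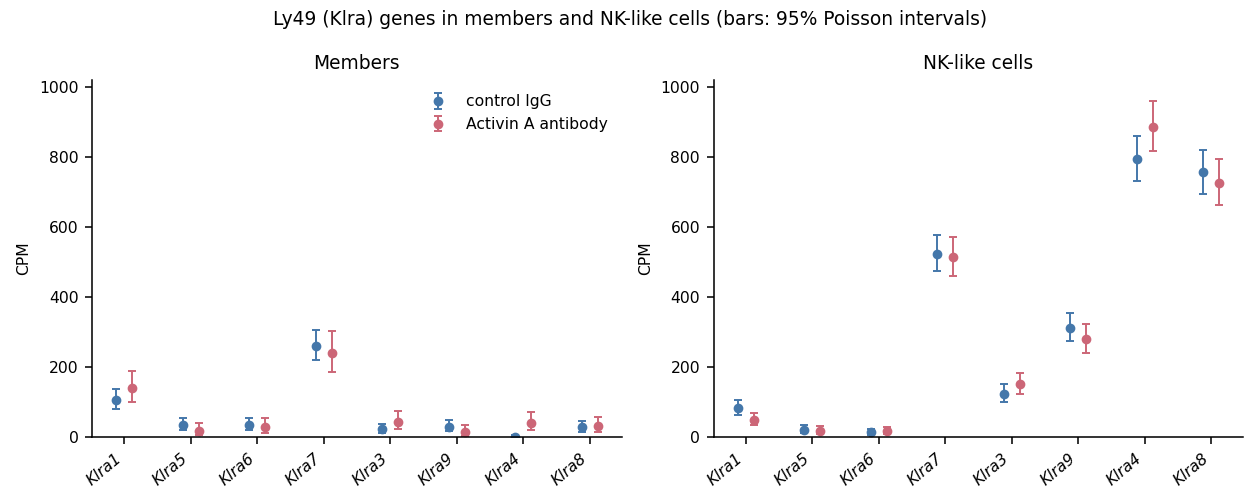
Level in CPM (vertical axes) of 8 Ly49 genes in members (left) and NK-like cells (right), by library, with bars for 95% Poisson intervals. In the control library Klra4 and Klra8 stood at 0 and 27.2 CPM in members and at 794 and 757 CPM in NK-like cells, and Klra1 at 105 and 82.9 CPM.

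Members with and without a Ly49 UMI were compared for other genes. This comparison was added after the data were seen, used the 106 and 80 members left without mixed cells, and called a gene when it was at least 2-fold apart in the same direction in both libraries with intervals without 0. Of 2691 genes with enough UMIs, 18 were higher (0.669%) and 7 lower (0.26%) in the 40 control and 34 antibody members with a Ly49 UMI. By list, as a description, 2 of 4 measured NK signalling genes, 2 of 8 NK receptors and 2 of 6 type 1 factors were higher, 1 of 9 T cell receptor signalling genes was lower, and 0 of 8 innate and memory factors were called. The adaptors Tyrobp and Fcer1g, which pass on signals of activating NK receptors, were higher. Tyrobp stood at 686 against 91.2 CPM in the control library and at 827 against 124 CPM in the antibody library, and Fcer1g at 973 against 179 CPM and 1115 against 366 CPM. Klrb1c, which encodes NK1.1, stood at 170 against 57 CPM and 367 against 65.3 CPM. Klre1, another NK lectin receptor, was higher as well, with log2 ratios of 1.30 (0.66 to 1.96) and 1.72 (0.85 to 2.67).

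A few integrins and transcription factors were among the higher genes too. Itga1 and Itga2, the collagen-binding integrins CD49a and CD49b, had log2 ratios of 1.25 and 1.49 in the control library and 1.03 and 2.95 in the antibody library. Id2 and Zeb2, transcriptional regulators of effector lymphocytes, had log2 ratios of 1.31 and 1.35 in the control and 1.03 and 2.23 in the antibody library. Gzma stood at 372 against 64.6 CPM and at 1417 against 13.1 CPM, and most Gzma UMIs of all members lay in 3 cells of each library. The other higher genes were Sytl2, Atp1b1, Litaf, Fgl2, Myo1e, Gbf1, Slc14a1, Cd7 and Clnk. Without the members holding an Ncr1 UMI, Gzma, Itga2, Id2, Zeb2, Sytl2, Atp1b1, Myo1e, Gbf1, Slc14a1 and Clnk were no longer called.

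The lower genes in members with a Ly49 UMI included Themis, which tunes T cell receptor signalling during thymic selection. It stood at 122 against 574 CPM in the control library and at 122 against 411 CPM in the antibody library, with log2 ratios of -2.23 (-2.93 to -1.59) and -1.75 (-2.62 to -0.96). Fam169b, Rgs10, P4ha1, Smc4, Hspa1b and Ifi27l2a completed the 7, of which P4ha1 and Ifi27l2a were not called without the members holding an Ncr1 UMI. Ccr7, the homing receptor for lymph nodes, had too few UMIs to be counted, at 16 against 106 CPM and at 0 against 111 CPM. Lef1, a factor of naive and memory-like T cells, was lower by less than 2-fold in the control library, at 511 against 699 CPM, and stood at 316 against 705 CPM in the antibody library. Ikzf2 was higher by less than 2-fold, at 888 against 452 CPM and 1517 against 1044 CPM, and Trdc stood at 830 against 980 CPM and 626 against 862 CPM. Members with a Ly49 UMI were deeper, with median UMIs of 4374 against 3532 and 4003 against 2957, and with all members thinned to 2000 UMIs 14 genes were higher and 7 lower of 1350. Without members holding an Ncr1 UMI 10 were higher and 6 lower of 2375.

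**Figure D3:**
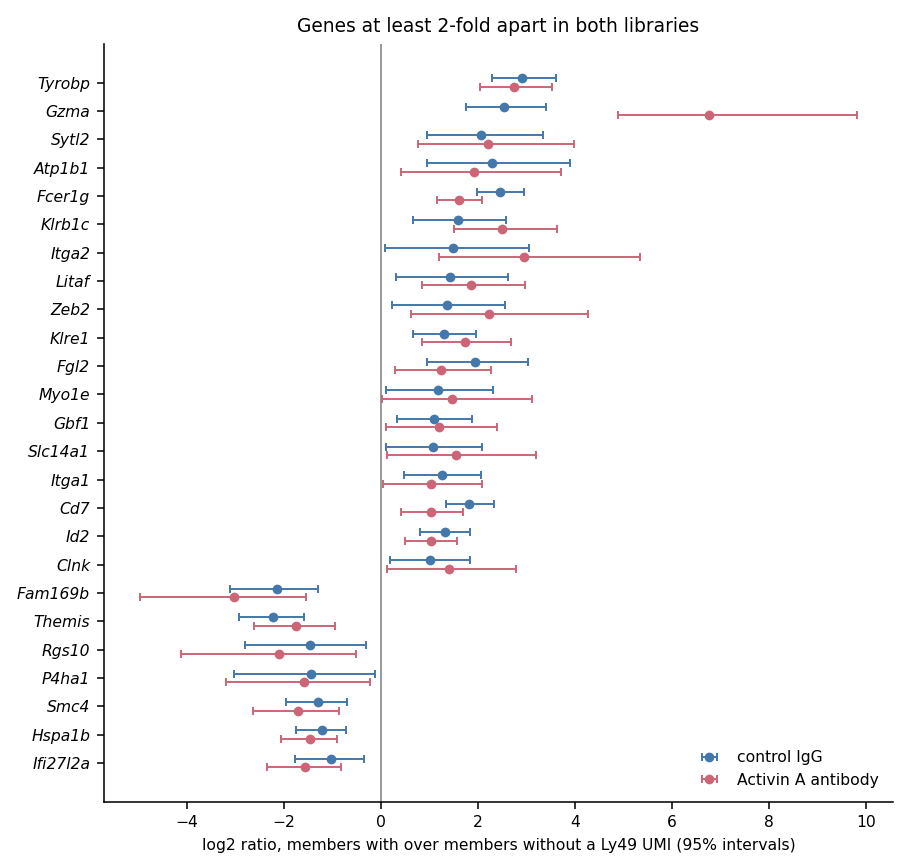
Log2 ratio of the level in members with over members without a Ly49 UMI (horizontal axis) for the 25 genes at least 2-fold apart in both libraries, by library, with 95% intervals. The 18 higher genes include Tyrobp (2.91 and 2.74) and Klrb1c, the 7 lower genes Themis (-2.23 and -1.75) and Fam169b.

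Other divisions of the 186 members, by a UMI of a single gene, are given as descriptions. Zbtb16, which encodes the innate-like T cell factor PLZF, was found in 7 control and 7 antibody members. These had more Il18r1 and Il18rap, the chains of the interleukin 18 receptor. Il18r1 stood at 1586 against 432 CPM in the control library and 793 against 318 CPM in the antibody library, with log2 ratios of 1.88 (1.41 to 2.32) and 1.32 (0.57 to 2.01). Il18rap stood at 663 against 264 CPM and 866 against 284 CPM. Cd8a, the CD8 alpha chain, was found in 4 and 6 members, which had less Ikzf2, at 185 against 669 CPM and 170 against 1366 CPM.

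Members were compared with the 4 other classes gene by gene, calling a gene when it was at least 2-fold apart with intervals without 0 in the same direction in both libraries. The classes were chosen on measured values of the same cells, so these counts are descriptions without a test. A gene was compared with at least 20 UMIs over members and the class in each library, which many listed genes reached mainly through the side where they were high. Counts over lists are therefore given as descriptions that support nothing. Against gamma delta T17-like cells, 76 of 3380 genes were higher (2.25%) and 88 lower (2.6%). Of 14 interleukin 17-program genes outside the rule, 6 had enough UMIs to be measured, some only through the gamma delta T17-like cells. Il1r1, the interleukin 1 receptor, had no UMI in either group of members and 306 and 377 CPM in gamma delta T17-like cells, so that it was at least 56.2-fold and 37.2-fold lower against a floor of 3 UMIs per library. Blk, a kinase needed by interleukin 17-producing gamma delta cells, stood at 7.25 and 3.38 CPM against 467 and 305 CPM. Il17a had no UMI in members.

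Zbtb16 was lower as well, at 30.8 and 43.9 CPM against 535 and 348 CPM. Il7r, the interleukin 7 receptor, stood at 835 and 757 CPM against 2021 and 1944 CPM. Cxcr6 and Ccr2, chemokine receptors of tissue lymphocytes, and the checkpoint receptor Pdcd1 were also lower in both libraries. The 10 leading lower genes further held Pard3, Prelid2, Tmem176a, Tmem176b, Igf1r, Ramp1, Ramp3 and Maf. In the antibody library each of these reached the required UMIs mainly through gamma delta T17-like cells, members holding at most 8 UMIs (Igf1r).

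In the other direction, Ccl5, Xcl1, Ifng, Nkg7 and Tbx21 were higher in members. Xcl1 and Ifng, with 0 UMIs of the class in the control library, and Tbx21 reached the required UMIs through members. Without the 3 members with most Xcl1 UMIs in each library, Xcl1 stood at 84.1 and 149 CPM in members, against 0 and 131 CPM. The call of Xcl1 thus rested on 3 cells in the antibody library, by an alternative chosen after seeing the data. Ccl5, a chemokine of effector T and NK cells, stood at 5436 and 7050 CPM against 900 and 3148 CPM, with log2 ratios of 2.59 (2.31 to 2.89) and 1.16 (0.96 to 1.37). Nkg7, a granule protein, stood at 761 and 912 CPM against 119 and 319 CPM. Ifng stood at 103 and 105 CPM against 0 and 14.5 CPM, the class in the antibody library holding 1 UMI. Tbx21, which encodes T-bet, stood at 158 and 311 CPM against 59.4 and 29 CPM. Klrc2, Il12rb2, Il18rap and Cd28 were also higher, each having reached the required UMIs through members. Il18r1, the partner chain of Il18rap, was lower, at 464 and 361 CPM against 993 and 725 CPM, though not without the mixed members. Among all genes the leading ones by the smaller of the ratios in the libraries were Lrmda, Adamts6, Fam241a, Gpr174 and Hipk2, followed by Setbp1, Tspan5, Cd28, Ctla2a and Pde2a. Each of these reached the required UMIs through members, with 1 and 3 UMIs of Lrmda and 12 and 11 of Ctla2a in the class.

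Against NK-like cells, 95 of 6229 genes were higher (1.53%) and 162 lower (2.6%) in members, and 100 and 195 without the mixed members. They included some genes of T cell identity, with 4 of 9 measured T cell receptor signalling genes higher, Themis and Bcl11b among them, and 0 lower. Themis stood at 317 and 270 CPM against 3.89 and 1.49 CPM, where the classes held 3 and 1 UMIs, and Bcl11b, which keeps T cell identity, at 246 and 247 CPM against 15.5 and 8.94 CPM. Some genes of naive, memory-like and circulating T cells were higher too, and 4 of 13 innate and memory factors were higher and 1 lower. Il7r stood at 835 and 757 CPM against 157 and 137 CPM, Tcf7 at 431 and 483 CPM against 184 and 153 CPM, and Lef1 at 520 and 520 CPM against 253 and 201 CPM. Ccr7, S1pr1 and Cd28 were among the higher genes as well. Ikzf2 stood at 569 and 1263 CPM against 128 and 180 CPM, with log2 ratios of 2.15 (1.82 to 2.49) and 2.81 (2.51 to 3.12), and Ifngas1 had log2 ratios of 2.32 (1.66 to 3.04) and 1.80 (1.10 to 2.51). The other leading higher genes were Nsg2, Fam169b, BE692007, Tcrg-C2, Gm8369, Sh3bp5, Dpp4 and Fam241a. Each of these reached the required UMIs through members, NK-like cells of either library holding at most 10 UMIs (Dpp4).

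Members had fewer transcripts of several cytotoxic genes than NK-like cells. Gzma stood at 159 and 672 CPM against 6466 and 6066 CPM, and Prf1, the pore-forming perforin, at 34.4 and 47.3 CPM against 442 and 445 CPM, having reached the required UMIs through NK-like cells. Nkg7, Gzmb, Fasl, Serpinb9 and Serpinb6b were lower too, though Fasl was not called without the mixed members. Of the NK receptor genes, Klrk1, Klre1 and Klrb1c were lower with at least 20 UMIs on each side in both libraries, and Ncr1 is part of the definition of NK-like cells. Klrc1 and Klrc2, which encode NKG2A and NKG2C, were not called different, Klrc1 standing at 217 and 213 CPM in members and 253 and 220 CPM in NK-like cells. Tyrobp and Fcer1g were lower, with log2 ratios of -2.50 and -1.98 in the control library and -2.04 and -1.49 in the antibody library. Ranked by the smaller of the ratios in the libraries, as all such leading genes against other classes, the leading lower genes were D5Ertd615e, Klra8, Klra4, Klrg1, Ccl3, Klrb1b, Adamts14, Phactr3, Pld1 and Klri2. Each of these reached the required UMIs through NK-like cells, members holding 1 and 1 UMIs of D5Ertd615e and 15 and 9 of Klra8. Ifng, at 103 and 105 CPM against 145 and 152 CPM, was not past 2-fold.

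Against CD8 cells, 233 of 10629 genes were higher (2.19%) and 119 lower (1.12%) in members. Without the mixed members 230 were higher and 181 lower. Of 17 NK receptor genes measured 9 were higher and 0 lower, among them Klrb1c at 86.9 and 209 CPM against 3.31 and 5.85 CPM and Ncr1 at 27.2 and 64.2 CPM against 0.737 and 2.79 CPM. Tcf7 stood at 431 and 483 CPM against 124 and 131 CPM. Of 12 inhibitory receptor genes 5 were lower, which were Pdcd1, Lag3, Havcr2, Ctla4 and Entpd1, and Klrc1 was higher. Of 14 cytotoxic genes 4 were lower, Gzmb standing at 39.8 and 118 CPM against 1039 and 973 CPM. The leading higher genes were Tcrg-C4, Fam184a, Klra1, Tcrg-C1, Klrb1c, Ncr1, Clnk, Klra7, Gm43647 and Dscam. The leading lower genes besides Cd8a, Ccl3, Gzmb, Havcr2 and Trac were Tmem163, Gm36723, Smyd1, S100a4 and F730043M19Rik. Of these, Cd8a, Ccl3, Havcr2, Tmem163, Gm36723, Smyd1 and F730043M19Rik reached the required UMIs through CD8 cells in both libraries.

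Trdc-negative cells were the class closest to members by the share of genes called. This class was added to the gene-by-gene comparisons after the data were seen. Of 10089 genes, 33 were higher (0.327%) and 109 lower (1.08%). Gamma chain genes were 4 of the 10 leading higher ones, Tcrg-C4 standing at 109 and 152 CPM against 13.2 and 12.4 CPM and Trgv2 at 39.8 and 67.6 CPM against 6.58 and 6.98 CPM. Klrc1, Klrc2 and Ncr1 were higher, Klrc1 at 217 and 213 CPM against 76.6 and 60.7 CPM. The leading genes further held Gm43647, which came first, Cfap43, Tshz3, BC035044, Gria3 and Fam184a. Trac was lower, with log2 ratios of -1.97 (-2.41 to -1.56) and -2.83 (-3.64 to -2.12). The leading lower genes were Col1a1, Col1a2, Col3a1, Col6a1, Dcn, Fstl1, Igfbp6, C3, Gsn and Tshz2, several of them genes of connective tissue. Each of these leading lower genes reached the required UMIs through Trdc-negative cells, Col1a1 holding 6 and 1 UMIs in members against 1038 and 732. The part of fibroblast transcripts among Trdc-negative cells in this was not tested. Without mixed members 38 genes were higher and 239 lower.

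Between the libraries, members of the antibody library had more Ikzf2. By list, 3 of 12 NK receptors, 2 of 11 cytotoxic genes and 2 of 4 chemokines were higher, and of 8 type 1 factors 0 were higher and 1 lower. Of 5960 genes with at least 20 UMIs, 153 were at least 2-fold higher in antibody members with an interval without 0 (2.57%) and 269 lower (4.51%). Without the mixed members 128 of 5421 were higher (2.36%) and 92 lower (1.7%), so that 92 in place of 269 genes were lower without those 7 cells. Pooled libraries without replicates give no error between mice, and these ratios compare the libraries.

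Ikzf2 stood at 569 CPM (314 UMIs in 70 cells) in control and 1263 CPM (374 UMIs in 61 cells) in antibody members. The log2 ratio was 1.15 (0.93 to 1.37), and 1.00 (0.78 to 1.23) without the mixed members. The share of members with Ikzf2 after thinning was 50% and 64.9%. Ikzf2 was higher in the antibody library in other classes too, by a smaller log2 ratio of 0.48 (0.37 to 0.60) in CD8 cells, 0.49 (0.10 to 0.89) in NK-like cells and 0.20 (0.13 to 0.28) in Trdc-negative cells. The difference between classes was not tested.

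Several NK-type genes moved the same way. Klrb1c stood at 86.9 and 209 CPM in control and antibody members, in 30 and 28 cells, with a log2 ratio of 1.27 (0.70 to 1.84) and of 1.00 (0.43 to 1.58) without the mixed members. Klrb1f, a related lectin receptor whose reads may be shared with close copies, stood at 30.8 and 84.5 CPM with a log2 ratio of 1.46 (0.51 to 2.44), and of 1.18 (0.24 to 2.16) without the mixed members. These were 2 of the 3 higher genes of 12 measured in the NK receptor list, where 2.57% of all genes were higher, the other being Ncr1, whose log2 ratio of 0.97 (-0.09 to 2.05) without the mixed members included 0. The median log2 ratio of the 12 genes was 0.41, beside 0.03 over all 5960 genes. Without the mixed members it was 0.19, beside 0.04 over all genes. Klra7 was not higher, with 261 and 240 CPM and a log2 ratio of -0.12 (-0.55 to 0.30). Of 7 measured Ly49 genes 0 were past 2-fold, which is near the background of 2.57% of all genes higher and 4.51% lower. Ifngas1 stood at 156 and 155 CPM, with an interval of the log2 ratio from -0.55 to 0.53.

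Several chemokine and granule genes were higher in the antibody library, with many of their UMIs in few cells. Xcl1 stood at 161 and 331 CPM with a log2 ratio of 1.04 (0.61 to 1.47), and of 0.78 (0.35 to 1.22), under 2-fold, without the mixed members, and 3 cells held 50.6% and 57.1% of its UMIs. It was lower in the antibody library in NK-like cells, with a log2 ratio of -0.48 (-0.73 to -0.24), and in CD8 cells. In the other 2 classes Xcl1 was higher in the antibody library, as in members. It stood at 56.2 and 91.1 CPM in Trdc-negative cells and at 0 and 131 CPM in gamma delta T17-like cells. Gzma stood at 159 CPM in 14 control members and 672 CPM in 10 antibody members, with a log2 ratio of 2.08 (1.71 to 2.46), of 1.82 (1.45 to 2.20) without the mixed members, and of 1.21 with at least 2 Trdc UMIs, and 3 cells held 83% and 84.4% of its UMIs. The share of members with Gzma was 12.5% (7.01 to 20.1%) and 12.3% (6.08 to 21.5%). Gzmb, granzyme B, stood at 39.8 and 118 CPM with a log2 ratio of 1.57 (0.76 to 2.41), which turned to -1.78 with at least 2 Trdc UMIs required. Ccl4, a chemokine of activated lymphocytes, stood at 77.9 and 199 CPM with a log2 ratio of 1.36 (0.76 to 1.96), and of 0.65 under that stricter rule.

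**Figure D4:**
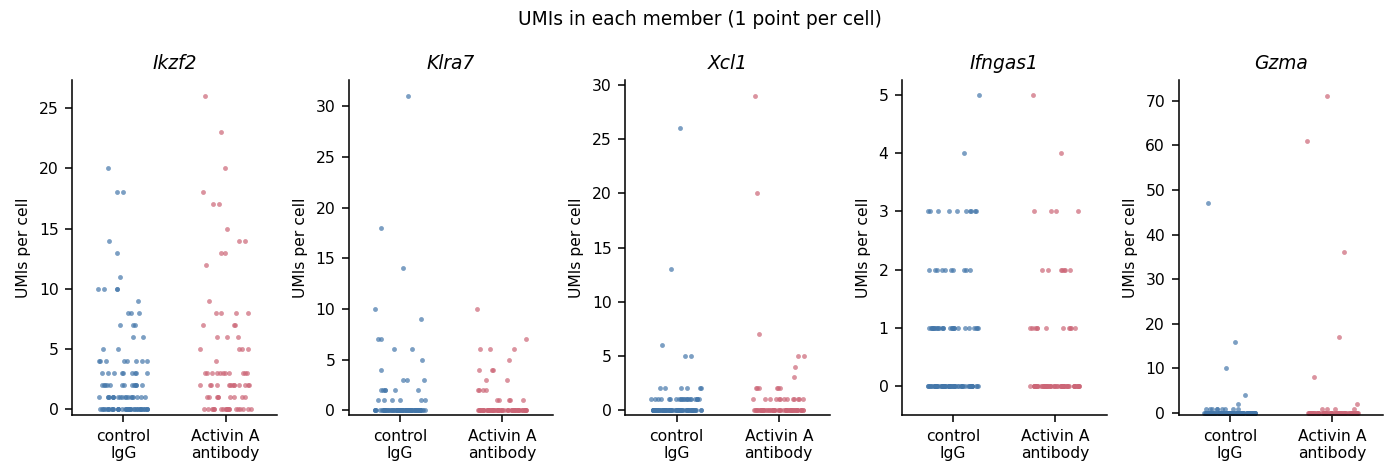
UMIs per cell (vertical axes) of 5 genes in each member, with 1 point per cell, for the control IgG (112 cells) and Activin A antibody (81 cells) libraries. Ikzf2 is spread over many cells (70 and 61 with a UMI), whereas most Gzma UMIs lie in 3 cells of each library (83% and 84.4%).

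Of the inhibitory receptors 2 of 8 and of the trafficking genes 2 of 14 were higher, and 1 and 1 without the mixed members, beside 2.57% and 2.36% of all genes. Cxcr6 stood at 52.5 and 142 CPM in 22 and 26 members, with a log2 ratio of 1.43 (0.72 to 2.17), of 1.26 without the mixed members, and of 0.71 with at least 2 Trdc UMIs. Ctla4, a checkpoint receptor, stood at 61.6 and 145 CPM with a log2 ratio of 1.24 (0.56 to 1.93), and of 0.97 (0.28 to 1.66) without the mixed members. Pdcd1, which encodes PD-1, rested on 11 and 16 UMIs, with a log2 ratio of 1.44 (0.24 to 2.69). Of 15 interferon-stimulated genes measured 4 were higher, beside 2.57% of all genes, and 0 lower, beside 4.51%. The higher ones were Isg15, Ifit1, Ifit3 and Rtp4, with Ifit1 found in 4 members of each library. In the antibody library the highest cell for each gene held 11 of 27 UMIs of Isg15, 9 of 20 of Ifit1, 8 of 14 of Ifit3 and 3 of 16 of Rtp4. The median log2 ratio of the 15 genes was 0.18, beside 0.03 over all genes. Isg15 did not pass without the mixed members, at 0.80 (-0.05 to 1.65). Tbx21 stood at 158 and 311 CPM with a log2 ratio of 0.98 (0.54 to 1.42), just under 2-fold. Il7r, Tcf7, Lef1 and Ifng stood at 835, 431, 520 and 103 CPM in control and 757, 483, 520 and 105 CPM in antibody members, and none was past 2-fold.

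Of the 10 largest higher ratios, most rested on few UMIs, and that of Gzma on few cells. They belonged to Gm44174 (2 and 22 UMIs), Gm32916, Zfp809 (4 and 17), Cc2d1b (5 and 18), Ifit1, Phf1 (8 and 21), Car2, Ly9 (11 and 26), Ethe1 and Gzma. All 22 UMIs of Gm32916 came from 1 cell. The largest lower ratios, among them those of Apoe, Lyz2, H2-Eb1, H2-Ab1, H2-Aa, Timp1, Lgals7, Cdkn2a and Mgp, lay mostly in the mixed members, and without them each of these 9 genes fell under the 20 UMIs required for a call, Apoe falling from 144 to 16 control UMIs and Lgals7 from 119 to 7. On these few UMIs the log2 ratio of Apoe was -3.37 (-8.76 to -0.69), and that of Lgals7 -0.60 (-3.18 to 1.54). Lyz2 had -1.96 (-5.16 to 0.21), H2-Ab1 -1.79 (-4.21 to 0.02) and H2-Aa -1.54 (-4.79 to 0.73), and H2-Eb1 held 18 control and 0 antibody UMIs. Without the mixed members the leading lower genes included Ece1, Esr1, Naip2, Ifitm1, Tomm40, Maea, Siah1a, Tesc and Gpatch2l.

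Without the mixed members the leading higher genes also held Hdac9, Gpd2, Mtmr2 and Irf8, and Nfil3 and Cd244a passed 2-fold. Zeb2, Id3, Tmem176a, Tmem176b and Atf3, past 2-fold lower over all members, did not pass without them. Tmem176a then had -1.70 (-4.93 to 0.53) on 10 and 2 UMIs, under the 20 required. Cd74, of the dendritic list, stayed lower, at -1.10 (-2.28 to -0.04). The log2 ratios of Zeb2 and Id3 were then 0.06 (-0.81 to 0.91) and 0.01 (-1.12 to 1.08).

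**Figure D5:**
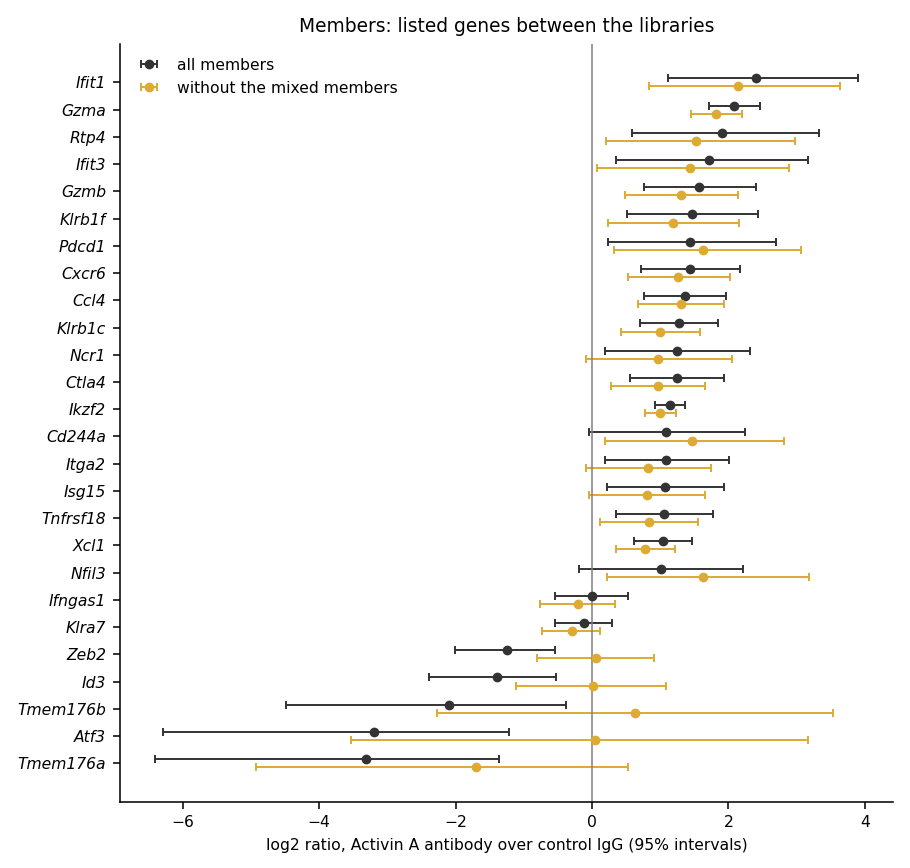
Log2 ratio of the level in Activin A antibody over control IgG members (horizontal axis) for listed genes past 2-fold in either set of members, with Klra7 and Ifngas1 for comparison, and 95% intervals. Ikzf2 had 1.15 over all members and 1.00 without the mixed members, while Id3 went from -1.40 to 0.01.

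Activin A signals through type II receptors encoded by Acvr2a and Acvr2b and type I receptors such as Acvr1b to Smad2 and Smad3. Of 19 genes of this list and of the related TGF-beta pathway 14 were measured, and 0 were past 2-fold between the libraries in either direction, with a median log2 ratio of 0.24. With 2.57% of all genes higher and 4.51% lower, a count of 0 among 14 is near the background. Acvr2a stood at 52.5 and 91.2 CPM in control and antibody members, with a log2 ratio of 0.80 (-0.02 to 1.60). Acvr2b had no UMI in 112 and 81 members, which allows a level of up to 5.43 and 10.1 CPM at 3 UMIs. Smad2 stood at 58 and 111 CPM with a log2 ratio of 0.94 (0.20 to 1.69), and Smad3 at 129 and 196 CPM with 0.61 (0.08 to 1.13). Without the mixed members Smad2 had 0.93 (0.13 to 1.73) and Smad3 0.42 (-0.12 to 0.95), an interval that included 0. Smad7, an inhibitory Smad induced by the pathway, stood at 254 and 263 CPM with 0.06 (-0.36 to 0.46). Tgfbr2, a TGF-beta receptor, stood at 194 and 267 CPM. Against CD8 cells Acvr2a was 4.42-fold and 16-fold higher in members. It was not called different from NK-like cells, at 53.1 and 56.6 CPM, or from gamma delta T17-like cells, at 102 and 145 CPM. It was found in 16.1% and 25.9% of members and 4.63% and 7.69% of B-like cells.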

How the data were processed

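Per the file headers and the submitters' processing notes, the authors made the deposited UMI counts per gene and barcode with Cell Ranger (7.0.1 in the notes, format 4 in the header) on mm10. All barcodes were deposited and no column was left unused. Barcodes were kept as cells when they held 1000 to 8500 genes, between 1000 and 100000 UMIs, and no more than 10% of UMIs from mitochondrial genes, and no doublet caller was run. Members, classes and gene lists were chosen with earlier results of these data known. UMIs were summed per library and class and scaled to CPM with exact Poisson 95% intervals. Log2 ratios have conditional binomial intervals and shares Clopper-Pearson intervals, all covering counting error only. Genes needed at least 20 UMIs and were counted when at least 2-fold apart with an interval without 0. Named genes belong to the lists or were the 10 with the largest ratios in each direction, except in the comparison by Ly49, where all called genes are named. The comparisons with Trdc-negative cells and by Ly49, the sets without mixed members, and Hdac9, Gpd2, Mtmr2 and Irf8 were chosen after their values were seen. Free RNA was described by barcodes under 100 UMIs, which held 6.39% and 6.23% of UMIs. Of 32285 gene identifiers 32158 matched GENCODE M21. Python 3.11.15, numpy 2.4.6, scipy 1.17.1, pandas 2.3.3 and matplotlib 3.10.9 were used, and the ratio test was tested on simulated data. Some genes are not reported here.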

Additional observations from a re-analysis of the deposited data

Results flagged for a closer look

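For 10 genes the log2 ratio of antibody over control ran in opposite directions in members and in another class, each with an interval without 0. Whether the ratios differ between the classes was not tested, and with 1 library per group no sample could be compared with others of its group. Against NK-like cells, Gzma had 2.08 in members and -0.09 in the class, Gzmb 1.57 and -0.30, and Xcl1 1.04 and -0.48. Klrb1f had 1.46 in members and -0.53 in NK-like cells, and Ncr1, which defines that class, 1.24 and -0.35. Against CD8 cells, the class had -0.73 for Gzma, -0.10 for Gzmb and -0.68 for Xcl1, and Dlk1 had -1.84 in members and 0.45 in the class. Xcl1 was not lower in every class, standing at 56.2 and 91.1 CPM in Trdc-negative cells of the control and antibody libraries. Pdcd1 had 1.44 in members and -0.73 in gamma delta T17-like cells. In the other direction, Lgals7 had -4.41 in members and 1.26 in NK-like cells, Lyz2 -5.06 and 0.82, and Tmem176b -2.10 and 0.56. Without the mixed members the intervals of Lgals7 (-0.60), Lyz2 (-1.96), Tmem176b (0.63), Dlk1 (-0.37) and Ncr1 (0.97) included 0.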

How the results depend on the processing

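No paired analysis was possible because mice were pooled into 1 library per group, and for the same reason no replicate could be left out. The log2 ratio of the share of members ran from -0.36 with at least 2 Trdc UMIs to 0.25 without cells holding 2 or more UMIs of other lineages. The 422 genes past 2-fold between the libraries became 243 with at least 2 Trdc UMIs, 266 with a CD3 sum of at least 3, 197 without cells of other lineages, 220 without mixed members and 144 at 50 or more UMIs per gene. Of these, 36.3% were higher, against 46.2% with the CD3 sum of 3, 64% without other lineages and 58.2% without mixed members. Against gamma delta T17-like cells 164 became 91 at 50 UMIs (60.4% higher in place of 46.3%) and 260 with no filter (29.2%), and against NK-like cells 257 became 152 at 50 UMIs. Against CD8 cells 66.2% of the genes were higher, and 56% without mixed members (230 higher and 181 lower) or 53.9% without other lineages. Against Trdc-negative cells 142 became 219 with the CD3 sum of 3, 240 without other lineages and 277 without mixed members. The 25 genes by Ly49 became 16 without members holding Ncr1, of which 13 were shared (8 higher and 5 lower). Directions reversed for Atf3 (0.45 without other lineages, 0.04 without mixed members), Tmem176b (0.45 and 0.63), Id3 (0.01), Zeb2 (0.06) and Mgp (0.04) without mixed members, and for Gzmb (-1.78) and Mgp (0.03) with at least 2 Trdc UMIs. Ikzf2 kept its direction under each alternative run, from 0.80 to 1.35. The cause of these shifts was not tested. The alternatives without mixed members were chosen after seeing the data. In members 3 UMIs were 5.43 and 10.1 CPM, and levels near or under these rest on 1 to 3 UMIs.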
